A study of Bos taurus with 16 samples.

Results

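The high gain-low intake steers, which were the most feed efficient animals of a feeding trial, were compared with the low gain-high intake steers, which were the least efficient. The 8 animals were taken by their phenotype labels from 16 steers in 4 groups of 4, and the remaining groups, low gain-low intake and high gain-high intake, served as points of reference. All were crossbred steers, about a year old when the trial began, that ate the same corn-based ration with distillers grains, hay and monensin as they wished for 84 days. They were the most extreme animals of each quadrant of gain and intake in a larger herd, with breed balanced only in part, so breed and phenotype cannot be told apart. On each slaughter day 1 steer of each group was processed, but which steer had which day, breed and array strip was not known here.

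RNA of a piece from the unattached end of each spleen, some centimetres in from the free end, was hybridised to its own Affymetrix Bovine 1.1 ST array. Each value is the log2 expression of a transcript cluster, a set of probes along a gene, after the authors' normalization and a stretching step that widens differences. All differences below are high gain-low intake minus low gain-high intake on this log2 scale, with a top value of 19.93. Array medians ran from 8.24 to 8.37, and any pair of arrays correlated with r between 0.955 and 0.986 across features.

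The spleen filters blood in its red pulp, where macrophages clear old red cells, and mounts immune responses in its white pulp, where B and T cells collect around arteries. A capsule and trabeculae of smooth muscle and collagen hold it together and can expel stored blood. Interferons switch on antiviral genes, guanylate binding proteins and antigen presentation genes in many of these cells. The labelled tissue was checked against its markers. JCHAIN of plasma cells, SLC40A1 and SPIC of red pulp macrophages, CD3E of T cells and MS4A1 of B cells lay at or above percentile 96.8 of all features. ALB of liver, CPA1 and CEL of pancreas and ADIPOQ of fat lay at or below percentile 23.8. Further markers of B cells, T cells and macrophages lay between percentile 81.1 (CD79B) and 97.6 (CD163). Some markers were less distinct, with TNFRSF17 of plasma cells at percentile 42.7, PLIN1 of fat at 39.9 and ACTA1 of skeletal muscle at 39.2. Several blood cell markers were no brighter than these tissues. For neutrophils MPO was at 49.3 and ELANE at 11.5, though CSF3R was at 66.4. ALAS2 of erythroid cells was at 49.1, and ITGA2B and GP9 of platelets were at 39.6 and 28.4.

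No transcript cluster differed between the most and the least efficient steers after adjustment for 24997 tests with limma. The lowest adjusted p was 0.273, and ordinary least squares also gave 0 clusters. At an unadjusted p under 0.05, limma counted 1314 clusters (5.26%), close to the share that this threshold gives without any difference, and 33 (0.132%) had an unadjusted p under 0.001. Of the 1314, 505 (2.02% of those tested) were higher and 809 (3.24%) were lower in the high gain-low intake steers. This split depended on scaling, with 615 higher and 657 lower after centring each array on its median and 583 and 712 after quantile normalization. The imbalance lay in the dim clusters. Among clusters at or below the median level 823 (6.58%) had such a p, 256 higher (2.05%) and 567 lower (4.54%). Among brighter clusters there were 491 (3.93%), 249 higher (1.99%) and 242 lower (1.94%). The 4 values of each group did not overlap for 695 clusters (2.78%), 249 of them higher (0.996%) and 446 lower (1.78%). The genes below are therefore described by their values, and the named ones were picked by small p on these same steers, so that their permutation p is no independent evidence.

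The gene with the smallest limma p was KCNMA1, the pore-forming subunit of the calcium-activated BK potassium channel, which opposes contraction in smooth muscle. KCNMA1 was dim, with a mean over all steers of 7.69 against a median level of 8.30 over all clusters. It thus lay among the dim clusters, where the excess of lower ones was found. Its level was 7.03, 7.09, 7.26 and 7.49 in the high gain-low intake steers and 8.16, 8.15, 8.61 and 7.88 in the low gain-high intake steers. Every efficient steer lay below every inefficient one, and the means of the high gain-high intake (7.81) and low gain-low intake steers (7.55) fell between them. The difference was -0.98 ± 0.16 (SE, 95% interval -1.32 to -0.64), with a limma adjusted p of 0.273 and a two-sided exact permutation p of 0.0286. That is the smallest p that 70 splits of 8 steers allow. Leaving out each steer in turn moved the difference between -1.09 and -0.85. In the list of potassium and sodium channel genes 3 of 14 measured members were higher and 11 lower, with a median difference of -0.13. Over all clusters 48.3% were higher and 51.6% lower, with a median of -0.0085, and the counts of every list below are set against these shares. KCNJ8, the pore of a vascular ATP-sensitive potassium channel, had a difference of -0.43 ± 0.19 (SE), or -0.27 without low gain-high intake steer 3, and SCN4B, a sodium channel beta subunit, had -0.24 ± 0.11 (SE) with no overlap. KCNJ8 and SCN4B were also below the median level, with means over all steers of 7.27 and 7.67.

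Among clusters above the median level, the lower gene with the smallest p was ADORA2A, an adenosine receptor that raises cAMP and dampens immune cells. Its levels were 8.61, 8.75, 8.46 and 8.85 in the high gain-low intake steers against 9.42, 8.99, 9.53 and 9.42 in the low gain-high intake steers. The high gain-low intake steers were low on their own here, since the means of the other 2 groups, 9.40 and 9.38, were close to that of the low gain-high intake steers (9.34). The difference was -0.67 ± 0.14 (SE), with a limma adjusted p of 0.575 and an exact permutation p of 0.0286. GPR135, an orphan G protein-coupled receptor, was at 7.94, 7.99, 8.27 and 7.97 against 8.55, 8.87, 8.63 and 8.65, a difference of -0.63 ± 0.15 (SE). Its mean over all steers, 8.300, was barely above the median level of 8.297. NGB, the oxygen-binding protein neuroglobin, had a difference of -0.79 ± 0.21 (SE). TRIAP1, an inhibitor of apoptosis that p53 induces, had -0.59 ± 0.17 (SE). The other 8 lower genes that the naming rule gave were 5 microRNA genes (MIR26B, MIR2300A, MIR1843, MIR1281 and MIR2337), the protamine gene PRM3, the olfactory receptor gene OR2L3C and LOC100300014, with differences between -0.89 and -0.55.

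At or below the median level, where the signal is closest to background, named after their values were seen were TBKBP1, HTR3C, OR2A62 and ARSK. TBKBP1, an adaptor of the kinase TBK1 in interferon induction, was at 6.95, 7.35, 7.08 and 7.22 in the high gain-low intake steers against 6.26, 6.40, 6.61 and 6.33, a difference of 0.75 ± 0.15 (SE) without overlap. ARSK, a lysosomal sulfatase, was at 8.04, 8.08, 8.18 and 8.02 against 7.61, 7.41, 7.45 and 7.43, a difference of 0.61 ± 0.13 (SE), also without overlap. HTR3C, a serotonin receptor subunit gene, had -0.63 ± 0.13 (SE) and the olfactory receptor gene OR2A62 had 0.72 ± 0.15. These 4 had limma adjusted p from 0.575 to 0.618. Olfactory receptor genes as a family were mostly lower, with 286 of 815 higher and 529 lower, a median difference of -0.11 and a median level of 6.51. After median centring 308 were higher and 507 lower, and after quantile normalization 324 and 491. Of 543 microRNA genes 212 were higher and 331 lower, with a median of -0.06. The lower quartile of the arrays was 6.97 to 7.10 in the high gain-low intake and 7.02 to 7.14 in the low gain-high intake steers, and its part in these counts was not tested.

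**Figure D1:**
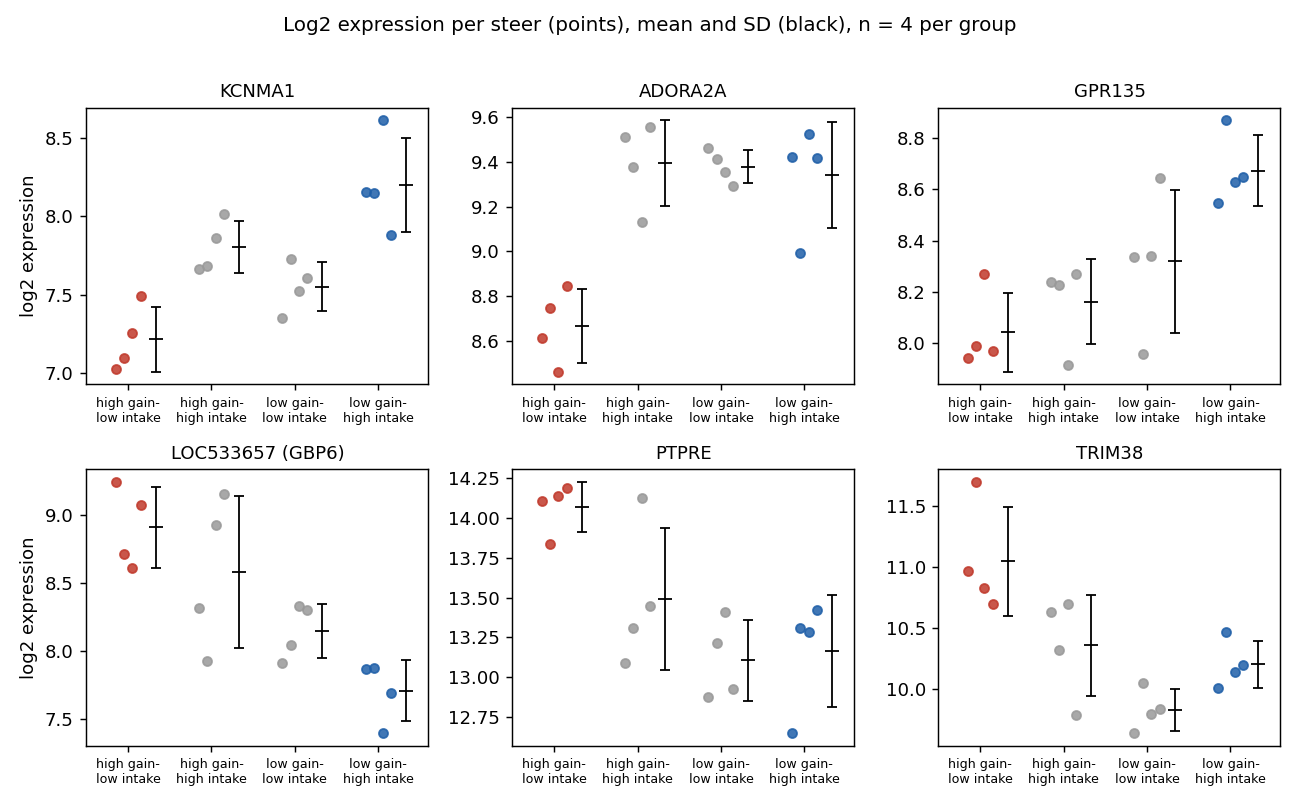
Log2 expression of 6 genes in each of the 16 steers (points) with the mean and SD of each group of 4 (black); the compared groups are in red (high gain-low intake) and blue (low gain-high intake) and the others in grey, and each panel has its own vertical scale. In all 6 panels no red point overlaps a blue one, but the genes were picked by small p on these same steers, which favours such a gap. Of all clusters 2.78% were without overlap. ADORA2A is low in the red group alone, with means of 8.67 against 9.34 to 9.40 in the other groups.

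The higher gene with the smallest p was LOC533657, which the study's own table calls GBP6. Guanylate binding proteins are interferon-induced GTPases that act against pathogens inside cells. The levels of LOC533657 were 9.24, 8.71, 8.61 and 9.07 in the high gain-low intake steers and 7.87, 7.88, 7.39 and 7.69 in the low gain-high intake steers. Its mean over all steers, 8.34, was barely above the median level of 8.30 over all clusters, and the low gain-high intake steers were below that level. Every efficient steer lay above every inefficient one, by a difference in means of 1.20 ± 0.24 (SE, 95% interval 0.70 to 1.70; limma adjusted p = 0.575; exact permutation p = 0.0286). A further member, LOC513659 (GBP7 in the study's table), was at 11.68, 10.75, 11.43 and 10.85 against 10.71, 9.90, 9.74 and 10.09. These values just failed to overlap, and the difference was 1.07 ± 0.31 (SE). Members of this family are close copies of each other, so probes may share signal and the value of any single copy is uncertain.

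Other higher genes were of mixed function. PTPRE, a receptor tyrosine phosphatase of immune cells, was at 14.11, 13.84, 14.14 and 14.19 in the high gain-low intake steers against 12.65, 13.31, 13.28 and 13.42, with no overlap and a difference of 0.90 ± 0.22 (SE). TRIM38, a ubiquitin ligase of innate immune signaling, was at 10.96, 11.70, 10.83 and 10.70 against 10.01, 10.46, 10.14 and 10.20, a difference of 0.84 ± 0.22 (SE). MTR, the methionine synthase that links folate to methyl group supply, had a difference of 0.63 ± 0.16 (SE). HACD2, a dehydratase of very long chain fatty acid synthesis, had 0.66 ± 0.17 (SE). CDC123, which assembles the translation factor eIF2, had 0.60 ± 0.16 (SE). In these 3 genes the groups did not overlap either. The other 5 were POLR3A of RNA polymerase III (0.76), MRRF of mitochondrial translation (0.78), LSM12 (0.65), the oxygen sensor EGLN1 (0.57) and the Hippo pathway kinase LATS2 (0.37). Of these 5 only LATS2 was without overlap. Limma adjusted p ran from 0.575 to 0.861 over all 24 genes.

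The compared groups differ in both gain and intake, and their difference equals the gain difference minus the intake difference. For 15 of the 24 genes (62.5%) the means of both other groups lay between the means compared here, against 67.0% of the 1314 clusters with an unadjusted p under 0.05 and 17.9% of all clusters. These shares are a description only, since a large difference between the outer groups leaves more room in between. LOC533657 had a gain difference of 0.82 and an intake difference of -0.38, while KCNMA1 had -0.36 and 0.62.

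Genes of the interferon response had higher means in the high gain-low intake group, but for the type I list this rested on 1 animal. All 18 measured type I interferon genes had a higher mean in the high gain-low intake steers, with a median difference of 1.30, and 0 of them had an unadjusted p under 0.05. High gain-low intake steer 2 was above the other 7 steers in 18 of 18 genes, by a median of 4.15 over the next highest. ISG15, a ubiquitin-like antiviral protein, was at 9.04, 16.14, 9.77 and 9.19 in the high gain-low intake steers against 9.41, 9.15, 9.49 and 9.02. MX2, an antiviral GTPase, was at 11.21, 18.54, 11.67 and 11.42 against 11.28, 11.50, 11.70 and 10.92. MX1, a related GTPase, was at 11.91, 17.97, 12.79 and 12.18 against 12.79, 11.20, 11.67 and 11.69. These 3 were named after their values were seen, and in each the other 3 high gain-low intake steers lay among or close to the low gain-high intake steers. Without steer 2, 11 of the 18 genes were higher and 7 lower, and the median difference was 0.074. The mean of the list was 10.08, 14.76, 10.55 and 10.01 in the high gain-low intake steers and between 9.86 and 10.46 in the low gain-high intake steers. IFI6 differed from this pattern, since steer 3 (19.62) was also high and steer 2 (19.93) was at the top of the scale, and its difference was 0.98 without steer 2. In the reference groups the mean of the list was 11.55 in high gain-high intake steer 3 and between 9.90 and 10.41 in the others.

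**Figure D2:**
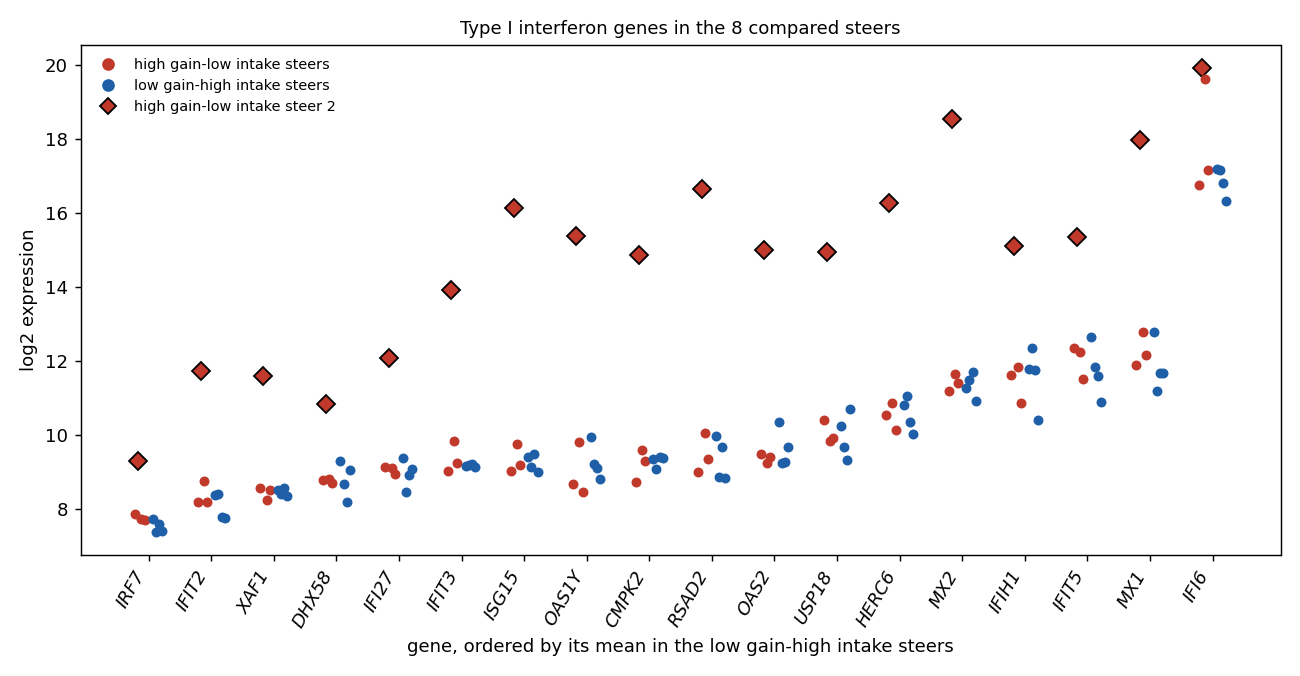
Log2 expression of the 18 type I interferon genes in the 4 high gain-low intake (red) and 4 low gain-high intake steers (blue), 1 point per steer. High gain-low intake steer 2 (diamond) is the highest of the 8 for every gene, and the other 7 steers overlap except for IFI6, where steer 3 of the same group is also high.

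The chemokines and guanylate binding proteins that interferon gamma induces were also high in high gain-low intake steer 2, which was the highest of the 8 in 7 of 11 genes. In this list 9 of 11 measured genes were higher with a median difference of 0.48, and without steer 2 these were 8 of 11 and 0.24. CXCL10, which draws T cells, was at 11.38, 14.37, 10.52 and 11.62 in the high gain-low intake steers against 9.91, 9.46, 11.32 and 10.23, and the groups overlapped only through low gain-high intake steer 3. Its difference was 1.75 ± 0.66 (SE; limma adjusted p = 0.914; exact permutation p = 0.0571), and 0.94 without steer 2. CXCL9, a related chemokine, was at 11.20, 11.29, 10.74 and 12.30 against 9.55, 10.28, 11.54 and 9.79, a difference of 1.10 ± 0.50 (SE). GBP1 had a difference of 0.82 ± 0.32 (SE), with steer 2 at 12.71, and 0.47 without it. GBP4 and GBP5 were high in steer 2 (12.08 and 11.11), and without it their differences turned from 0.96 and 0.43 to -0.038 and -0.025. LOC533657 and LOC513659 were highest in steer 1. IFNG itself was dim, at 6.12 ± 0.18 (SD, n = 4) and 6.31 ± 0.22. In bulk tissue, more cells of a type and more RNA per cell cannot be told apart.

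Among antigen presentation genes, BOLA-DQB showed values of an on or off kind. It belongs to the MHC class II DQ family, which binds peptides for CD4 T cells and varies between haplotypes. The values of BOLA-DQA5, BOLA-DQA1 and BOLA-DQB1 were more graded over the 16 steers. BOLA-DQB was at 8.61, 13.67, 14.40 and 14.64 in the high gain-low intake steers and at 8.05, 8.69, 9.21 and 8.77 in the low gain-high intake steers. It was thus high in 3 of 4 efficient steers and in none of the inefficient ones. In the other groups it was high in low gain-low intake steers 1 (14.31) and 3 (13.65), and the 4 high gain-high intake steers lay between 8.68 and 9.03. The difference of 4.15 ± 1.31 (SE) had a limma adjusted p of 0.863 and an exact permutation p of 0.114. BOLA-DQA5 was at 6.68, 10.96, 8.43 and 9.28 against 6.14, 6.84, 6.28 and 6.80, and it was high in the same 3 efficient steers and in low gain-low intake steers 1 (11.15) and 3 (8.21). BOLA-DQA1 was low in low gain-high intake steer 1 (9.69) and between 14.76 and 17.30 in the other 7. BOLA-DQB1 was low in high gain-low intake steer 1 (12.51) and in low gain-high intake steers 1 (14.22) and 3 (14.18). DQ genes are near copies with many alleles, so probes may read them unequally and the value of a single copy is uncertain.

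Outside DQ the class II genes lay closer together. BOLA-DRA was at 19.48 ± 0.06 (SD, n = 4) against 19.53 ± 0.05, CD74, the invariant chain, was at 19.55 ± 0.01 against 19.49 ± 0.12, and both are near the top of the scale, where differences are compressed. BOLA-DRB3 differed by 0.09 ± 0.37 (SE). In the whole class II list 9 of 14 genes were higher and the median difference was 0.09. In the class I list 8 of 10 genes were higher, with a median of 0.33, or 0.03 without low gain-high intake steer 2 and 0.18 without high gain-low intake steer 4. PSMB10, a subunit of the immunoproteasome that cuts peptides for class I, was at 14.76, 15.17, 14.39 and 14.90 against 14.15, 13.51, 14.19 and 14.30, with no overlap and a difference of 0.77 ± 0.29 (SE). The peptide-trimming enzyme ERAP2 had 0.45 ± 0.24 (SE), or 0.23 without low gain-high intake steer 3. Of the 31 proteasome subunit genes 18 were higher and 13 lower, with PSMD7 at 0.43 ± 0.16 (SE).

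**Figure D3:**
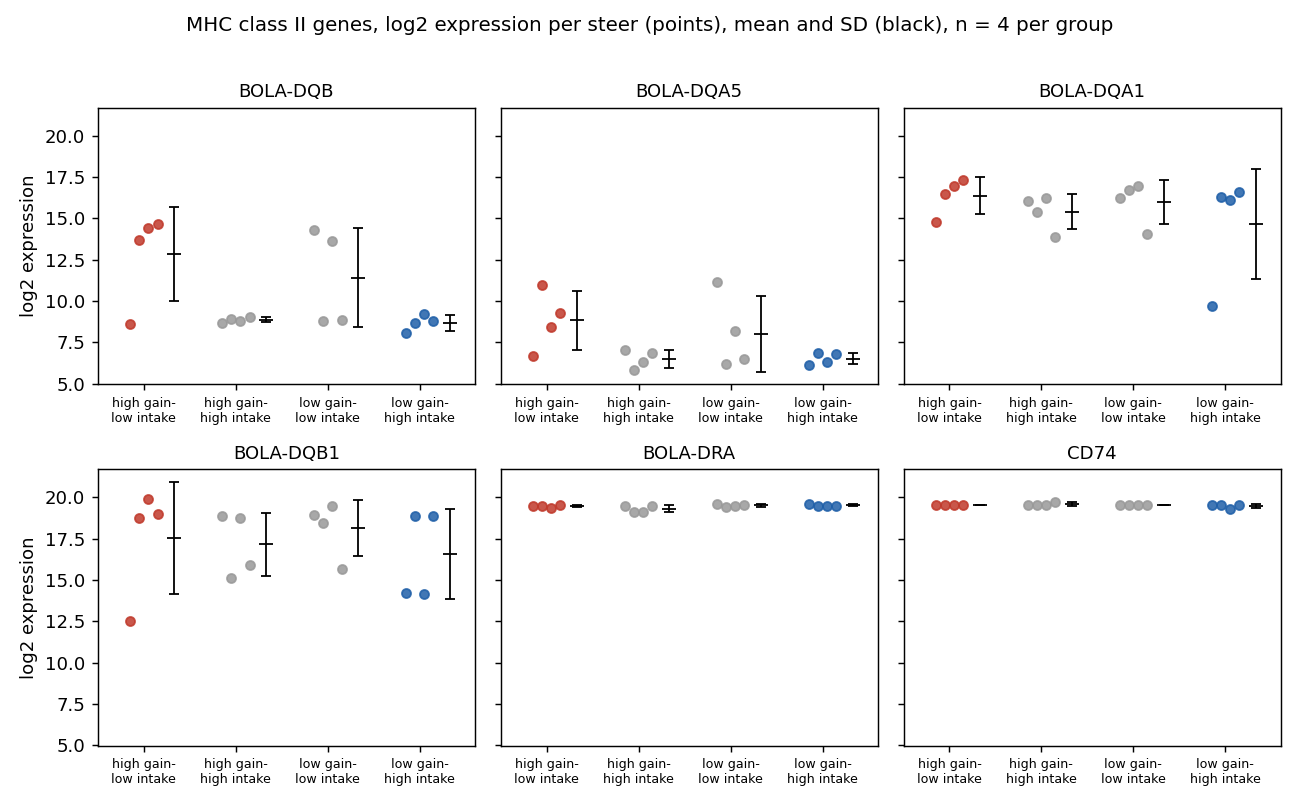
Log2 expression of 6 MHC class II genes in each of the 16 steers (points), with the mean and SD of each group of 4 (black), on 1 vertical scale that does not start at 0. BOLA-DQB and BOLA-DQA5 are high in 3 of the 4 high gain-low intake steers and in 2 low gain-low intake steers, while BOLA-DRA and CD74 are close to the top of the scale in all.

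Of the 52 gene lists, smooth muscle had the lowest median difference. All 10 measured smooth muscle genes had a lower mean in the high gain-low intake steers, with a median difference of -0.66, and 1 of them had an unadjusted p under 0.05, where 3.24% of all clusters were lower at that threshold. MYH11, the smooth muscle myosin heavy chain, was at 15.70, 15.21, 15.24 and 15.00 against 16.20, 15.03, 17.61 and 16.43, a difference of -1.03 ± 0.48 (SE; limma adjusted p = 0.951; exact permutation p = 0.114), which became -0.60 when low gain-high intake steer 3 was left out. The low gain-high intake steers spread widely. Steer 3 was the highest of the 8 in 10 of 10 genes, steer 2 was the lowest in 5, and without steer 3 the median difference was -0.19 with 9 genes lower and 1 higher. The mean of the list was between 12.06 and 12.54 in the high gain-low intake steers and 12.77, 12.06, 14.01 and 13.02 in the low gain-high intake steers. The reference groups also spread, with 12.03, 12.76, 13.75 and 12.91 in the high gain-high intake and 11.88, 13.21, 12.27 and 12.52 in the low gain-low intake steers. MYLK, the myosin light chain kinase, had a difference of -0.71 ± 0.36 (SE), DES, the intermediate filament desmin, -0.79 ± 0.54 (SE), and SYNM, its partner synemin, -0.68 ± 0.35 (SE). Without steer 3 these were -0.43, -0.39 and -0.37, and DES had -1.31 without low gain-high intake steer 2. KCNMA1 was also highest in steer 3, and its difference without that steer was -0.85. How far the amount of smooth muscle in the piece sampled moved with KCNMA1 was not tested. All 14 collagen genes were lower too, by a median of -0.20, and COL6A2 of type VI collagen (10.35, 10.16, 10.24 and 10.49 against 10.71, 10.51, 10.93 and 10.96) was the only 1 of them without overlap, where 1.78% of all clusters lay lower in that way. Leaving out 1 steer moved the collagen median between -0.44 (without low gain-high intake steer 2) and -0.12 (without low gain-high intake steer 4), with 3 genes higher in the latter case, and it was -0.36 without high gain-low intake steer 1, -0.13 without high gain-low intake steer 2 and -0.13 without low gain-high intake steer 3. After centring arrays on their median 13 of 14 collagen genes were lower.

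**Figure D4:**
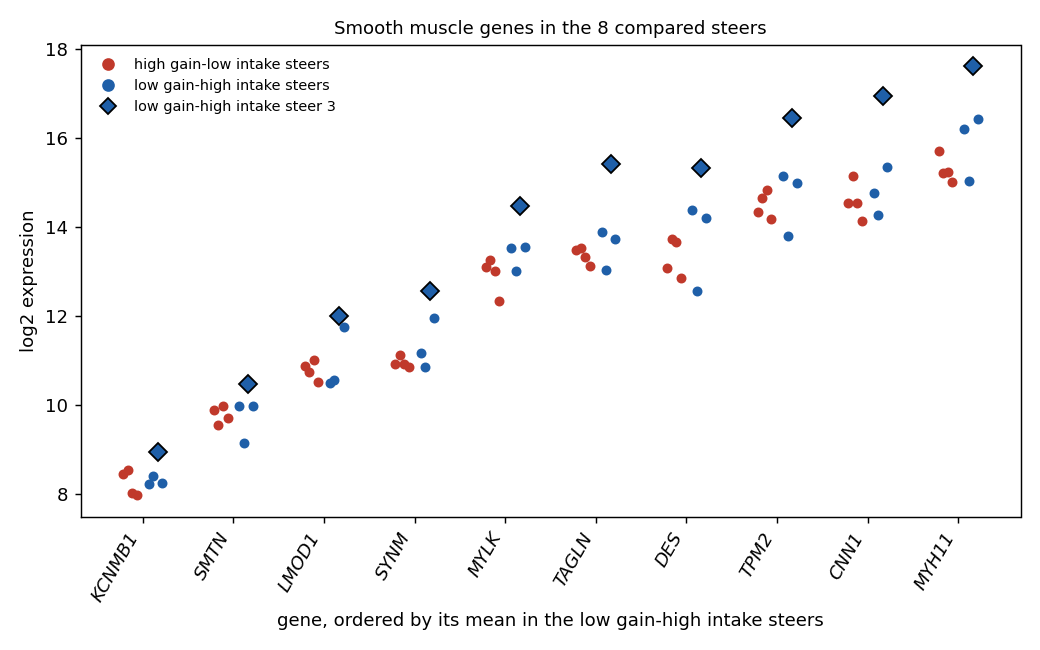
Log2 expression of the 10 smooth muscle genes in the 4 high gain-low intake (red) and 4 low gain-high intake steers (blue), 1 point per steer, on a vertical scale that does not start at 0. Low gain-high intake steer 3 (diamond) is the highest of the 8 for every gene, while steer 2 of that group is the lowest for 5.

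Lists of immune cell types had medians between -0.16 and 0.34. Of 12 natural killer and cytotoxic genes 7 were higher, with a median of 0.34, or 0.11, 0.19 and 0.14 without high gain-low intake steer 2, high gain-low intake steer 4 and low gain-high intake steer 2. GZMB, the protease granzyme B, was at 7.98, 7.92, 7.76 and 7.83 against 6.89, 7.63, 7.31 and 7.19, and TBX21, the T-bet factor of these cells, at 11.41, 11.58, 11.59 and 12.14 against 11.37, 11.34, 11.16 and 11.10. Both were without overlap, with limma adjusted p of 0.975 and 0.960, and the TBX21 difference was 0.44, or 0.28 without high gain-low intake steer 4. They were the only 2 of the 12 genes without overlap, where 0.996% of all clusters lay higher in that way, and 5 of the 12 were lower. GZMB was dim, with a mean over all steers of 7.75 against a median level of 8.30 over all clusters. For TBX21 the groups were barely apart, at 11.41 in high gain-low intake steer 1 and 11.37 in low gain-high intake steer 1. FLT3, a receptor of dendritic cell precursors, had a difference of 0.44 ± 0.20 (SE), and 6 of 7 dendritic cell genes were higher, with a median of 0.24, or 0.11 without low gain-high intake steer 2 and 0.16 without high gain-low intake steer 4. Of 7 naive T cell genes 5 were higher, with a median of 0.21, or 0.05 without high gain-low intake steer 3, 0.06 without low gain-high intake steer 3 and 0.13 without high gain-low intake steer 4 or low gain-high intake steer 1, while TSHZ2 of this list had -0.39 ± 0.17 (SE). Of 13 B cell genes 9 were higher (median 0.17), of 17 T cell receptor and coreceptor genes 9 (median 0.00), of 11 macrophage genes 4 (median -0.06) and of 10 red pulp iron recycling genes 5 (median -0.01). Of 10 white pulp chemokine and organiser genes 6 were higher (median 0.02, between -0.12 without high gain-low intake steer 4 and 0.18 without low gain-high intake steer 4), while LTA, the lymphotoxin of this list, had -0.36 ± 0.14 (SE). PF4, a platelet chemokine, was at 12.67, 11.42, 12.24 and 12.85 against 11.43, 11.10, 11.15 and 10.86, a difference of 1.16 ± 0.49 (SE), while the platelet list as a whole had 6 of 11 higher and a median of 0.07. For 15 neutrophil genes the median was -0.16 and turned to 0.45 without low gain-high intake steer 4, whose mean of the list was 10.77 against 7.81 to 9.57 in the other 7 steers. In the reference groups low gain-low intake steer 2 was higher still, at 11.97.

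Genes of protein synthesis and metabolism showed small differences. Of 17 aminoacyl-tRNA synthetase genes 12 were higher (median 0.11), and 3 of them had an unadjusted p under 0.05, all higher, where 2.02% of all clusters were. These were TARS1 (0.50 ± 0.17, SE), which charges threonine tRNA, WARS1 (0.82 ± 0.35), which charges tryptophan tRNA and is induced by interferon gamma, and FARSB (0.57 ± 0.26) for phenylalanine. WARS1 was highest in high gain-low intake steer 2 (16.20), and its difference was 0.48 without that steer and 0.54 without low gain-high intake steer 2. GARS1, for glycine, had 0.24 ± 0.13 (SE) with no overlap. Of 49 cytosolic ribosomal protein genes 31 were higher (median 0.09), with RPL22 at 0.55 ± 0.21 (SE), RPL8 at 0.94 ± 0.39 (0.55 without low gain-high intake steer 2) and RPS16 at 0.46 ± 0.21, while RPS4X had -0.28 ± 0.13.

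In glycolysis and glycogen metabolism 11 of 23 genes were higher and 12 lower. GYG1, the glycogenin that primes glycogen, was at 10.68, 10.66, 10.66 and 10.73 in the high gain-low intake steers against 11.14, 10.74, 11.38 and 11.50, a difference of -0.51 ± 0.18 (SE) without overlap. PFKM, the muscle phosphofructokinase, had -0.50 ± 0.19 (SE), and SLC2A3, a glucose transporter, 0.72 ± 0.28 (SE). Of 52 oxidative phosphorylation genes 19 were higher and 33 lower (median -0.07), and UQCRC2 of complex III had -0.36 ± 0.15 (SE). PLPP2, a lipid phosphate phosphatase, had 0.36 ± 0.12 (SE) with no overlap. Of 26 proliferation genes 21 were lower (median -0.14), and 0 had an unadjusted p under 0.05 in limma. Without high gain-low intake steer 2, 15 of the 26 were lower and the median was -0.0076, and without low gain-high intake steer 4 these were 15 and -0.093. The median was -0.068 without high gain-low intake steer 3, -0.077 without high gain-low intake steer 4 and -0.076 without low gain-high intake steer 3.

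Of 24 cytosolic heat shock genes 12 were higher and 12 lower (median -0.02), and DNAJC5, a chaperone of vesicles, had 0.51 ± 0.23 (SE), or 0.33 without high gain-low intake steer 4. In the study's own qRT-PCR of these animals the DNAJC5 means had the opposite order, and those of PLPP2 (PPAP2C there) were nearly equal. The qRT-PCR means of KCNMA1, SCN4B, TSHZ2 and LOC513659 (GBP7) differed in the same direction as on the array. Of 18 endoplasmic reticulum chaperone genes 5 were higher and 13 lower (median -0.08, or 0.01 without high gain-low intake steer 2 or low gain-high intake steer 1), of 22 immediate early genes 9 and 13 (median -0.12, or 0.26 without low gain-high intake steer 4) and of 20 NRF2 and redox enzyme genes 8 and 12 (median -0.03). Of 16 integrated stress response genes 7 were higher, with MTHFD2 of mitochondrial folate metabolism at 0.54 ± 0.21 (SE) and SESN2 at -0.41 ± 0.19 (SE). In the coagulation list F2, which encodes prothrombin, had -0.49 ± 0.13 (SE), PROS1, the anticoagulant protein S, -0.53 ± 0.23 (-0.28 without low gain-high intake steer 1), and BDKRB2, the bradykinin receptor, 0.39 ± 0.11. SAA4, a serum amyloid A of lipoproteins, had 0.44 ± 0.11 (SE). F2, BDKRB2 and SAA4 did not overlap, but their levels, between 4.49 and 7.39, were below the median of all features.

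**Figure D5:**
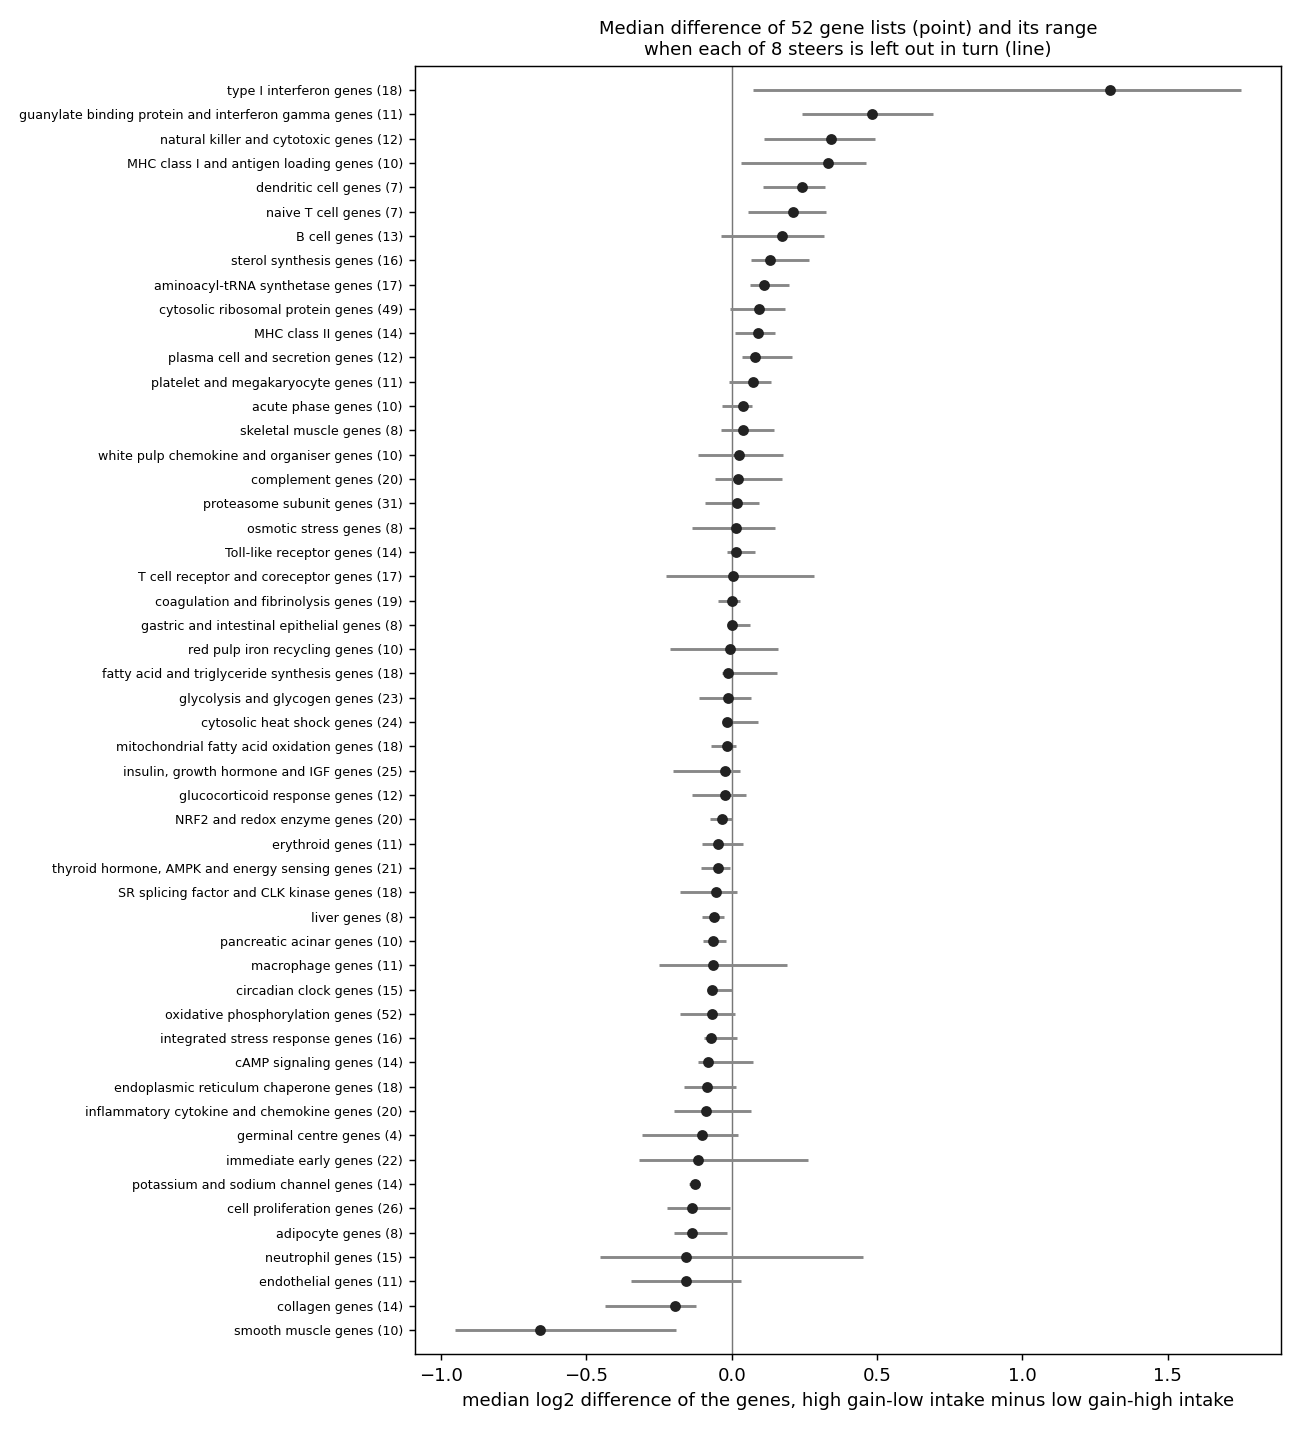
Median log2 difference, high gain-low intake minus low gain-high intake, of each of 52 gene lists (point; number of measured genes in brackets) and the range of that median when each of the 8 steers is left out in turn (line). For 45 lists the median lies between -0.2 and 0.2, and the type I interferon and smooth muscle lists have the outermost points and wide lines.

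Of 822 listed genes that were measured, 37 (4.5%) had an unadjusted p under 0.05, 23 of them higher and 14 lower, against 5.26% of all clusters, and 0 of 52 lists held a gene past the adjusted threshold in limma. The sign of the median turned for 33 of the 52 lists when 1 of the 8 steers was left out, among them the B cell, T cell, macrophage, ribosomal protein and heat shock lists, and for 0 of the 7 lists whose median was 0.2 or more in size. Lists picked for a large median have less room to turn, so a kept sign says little. The type I interferon median still fell to 0.074 and the naive T cell median to 0.054 without 1 steer. The B cell median was -0.04 without high gain-low intake steer 4 and -0.03 without low gain-high intake steer 1.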

How the data were processed

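RNA from the spleen of 16 steers was hybridised by the authors to Affymetrix Bovine 1.1 ST arrays, 1 for each steer. With Affymetrix Expression Console the authors corrected probe signals for GC content, applied signal space transformation and summarised them by RMA, and they deposited a log2 value for each transcript cluster in each animal. Transcriptome Analysis Console is also named in the submitters' processing notes. Program versions and the array's genome build were not known here, so no coordinates are printed. Groups were taken from the labels, and each steer is a separate animal. From the 26773 deposited clusters, 1776 whose ID came before the first annotated one were dropped and 24997 were tested. The platform annotation gave 1 gene symbol to 18790 of them, and several to 385 (not named here), and did not list 5822. A RefSeq gene matched 18003 of the symbols.

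Without further normalization, the log2 values of all 16 steers were fitted with 4 group means in limma 3.58.1 (lmFit and eBayes, R 4.3.3), and p-values of the contrast were adjusted by Benjamini-Hochberg over the 24997 clusters. Single genes were also tested by a two-sided exact permutation of 4 against 4 steers (scipy 1.17.1). The rule for naming genes took, in each direction, the 12 clusters of smallest p that had 1 symbol and a level above the median, and at most 4 members of each described list, again by p. KCNMA1 came in through its list. Genes of the DQ, DR, GBP and type I interferon families outside the rule, and a few others, were named after their values were seen. A gene with several clusters is described by the brightest. The 52 lists hold 886 genes, 822 of them found. Members and lists were chosen with earlier results of these data known. The fit was tested on simulated data for this contrast, in which 200 clusters were moved. There it found 50 of 100 clusters moved by 1 and 88 of 100 moved by 2 at an adjusted p under 0.05. The share that the fit would find in the real arrays, or among dim clusters, was not tested. With 4 arrays per group, the median SE of a difference was 0.195, and the number of arrays limits the precision. The alternatives tried were a fit of the 8 steers alone, robust moderation with an intensity trend, ordinary least squares (the model of the methods), array weights, quantile normalization, median centring, brighter clusters only, all deposited clusters, averaged clusters of a gene and leaving out each steer.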

Additional observations from a re-analysis of the deposited data

Results flagged for a closer look

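For 25 of 228 sets of 4 values (printed genes and list means in both groups), the gap between the outermost steer and its nearest neighbour, as a share of the range of the 4, was above Dixon's 95% critical value. Chance flags about 1 in 20 such sets, and genes of a list share their steers, so these are not separate findings.

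High gain-low intake steer 2 stood apart upward in interferon genes, with gap shares of 0.837 for IFIT2, 0.896 for IRF7, 0.855 for MX1 (17.97), 0.937 for MX2, 0.898 for ISG15, 0.914 for GBP4 and 0.887 for the mean of the type I list. The same steer was high for MIR26B (0.841) and lowest in the mean of the macrophage list (0.864), at 12.43 against 13.39 to 13.54 in its group. In the DQ family, high gain-low intake steer 1 was lowest for BOLA-DQB (0.840) and BOLA-DQB1 (0.838), and low gain-high intake steer 1 was lowest for BOLA-DQA1 (0.928), the class II list mean (0.863) and the B cell list mean (0.972). For BOLA-DRA, high gain-low intake steer 3 was lowest (0.893) and low gain-high intake steer 1 highest (1.0), and for CD74 low gain-high intake steer 3 was lowest (1.0). Where the share was 1.0, the remaining steers of the group had identical values near the top of the scale (19.51 for BOLA-DRA, 19.55 for CD74). The share is then 1.0 by construction, and the chance of 1 in 20 does not apply.

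In the high gain-low intake group, steer 3 was highest for GPR135 (0.866) and LOC100300014 (0.943), steer 1 was lowest for TRIAP1 (0.883) and OR2L3C (0.869), and steer 4 had the highest integrated stress response mean (0.863). In the low gain-high intake group, steer 2 was lowest for NGB (0.858), IFNG (0.832) and the proteasome subunit mean (0.892).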

How the results depend on the processing

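Under every alternative run, 0 clusters passed an adjusted p under 0.05 in limma or ordinary least squares, and the lowest adjusted p ran from 0.187 to 1. The count at an unadjusted p under 0.05 changed from 1314 (505 higher, 809 lower) to 419 (205 and 214) with only clusters above the median level and to 869 (333 and 536) with clusters of a gene averaged, both of which test fewer clusters. Clusters without overlap fell from 695 to 233 with only brighter clusters. Leaving out 1 steer gave totals from 1013 (without low gain-high intake steer 3) to 1916 (without low gain-high intake steer 2), higher counts from 420 to 798, lower counts from 550 to 1118, and from 1167 to 1964 clusters without overlap, where fewer steers make overlap rarer by construction. Of the genes printed, 3 turned direction under some setting. BOLA-DRB3 had -0.059 with array weights and from -0.21 (without low gain-high intake steer 2) to 0.28 when 1 steer was left out. GBP5 had from -0.025 to 0.68 and GBP4 from -0.038 to 1.34 when 1 steer was left out, in both the lowest without high gain-low intake steer 2. The cause was not tested. No paired analysis was possible because the labels carry no replicate numbers and the slaughter day of a steer was not known here. Dim clusters are limited by the background of the array, and the brightest by the top of the scale.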
